A study of Arabidopsis thaliana with 8 samples.

Results

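The type-A response regulators of *Arabidopsis thaliana* are a family of 10 genes, *ARR3* (AT1G59940), *ARR4* (AT1G10470), *ARR5* (AT3G48100), *ARR6* (AT5G62920), *ARR7* (AT1G19050), *ARR8* (AT2G41310), *ARR9* (AT3G57040), *ARR15* (AT1G74890), *ARR16* (AT2G40670) and *ARR17* (AT3G56380), which were taken by their locus identifiers from the 37336 genes of the count table and followed in leaves of *mips1*, *big*, *mips1 big* and wild-type Col-0 plants. Of these 10 genes, 8 had enough reads to be tested, and *ARR3* and *ARR17* were close to the limit of detection in every library. In *mips1* leaves, 5 members were called lower than in Col-0 leaves, where 37.1% of all tested genes were, and *ARR5* was called higher, where 36% were. In *big* leaves, 7 members were called lower than in Col-0 leaves, where 23.6% of all tested genes were. One of these 7 calls, that of *ARR15*, was lost under several alternatives, as was that of *ARR4* in *mips1*.

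Cytokinins are plant hormones that promote cell division and delay leaf ageing. They are sensed by membrane histidine kinases, which pass a phosphate through small phosphotransfer proteins to response regulators in the nucleus. Type-B regulators are transcription factors that switch on target genes, and the type-A genes are among their fastest targets. Type-A proteins carry the phosphate-receiving part without a DNA-binding part and dampen the signal, so that their transcripts are widely used as a readout of the pathway.

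Poly(A) RNA of pooled rosette leaves from several plants was sequenced with 2 libraries for each genotype. *mips1* lacks the major enzyme of myo-inositol synthesis and forms leaf lesions in long days. *big* carries a mutation in *BIG*, which encodes a very large protein involved in auxin transport, and the study's text calls this line *somi2*, an allele from a chemical mutagenesis of *mips1* plants with a deleted base that gives an early stop. *mips1 big* is the double mutant, and all lines were in the Col-0 background. According to the labels, plants spent 1 week in vitro in long days (16 h of light), 2 weeks in soil in short days (8 h of light) and then 5 days in long days, whereas the study's methods give other durations. A single line stood for each genotype, and nothing says whether the libraries of a genotype came from separately grown plants, so that the p-values measure the spread between these libraries, which may be technical.

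The libraries held 50123257 to 104501879 counts. *MIPS1* was at 5.30 and 6.12 CPM (counts scaled to a common library size, with a correction for composition) in *mips1* leaves and at 9.85 and 10.8 CPM in *mips1 big* leaves, against 120 and 152 CPM in Col-0 leaves. *BIG* was at 57.2 and 62.1 CPM in *big* leaves and at 93.4 and 89.9 CPM in *mips1 big* leaves, against 113 and 132 CPM in Col-0 leaves. One Col-0 library stood apart, with 102 of 19709 genes over 4-fold higher in Col-0 replicate 1 than in Col-0 replicate 2, while the other genotypes had 0 to 4 genes over that fold between replicates. Chloroplast genes took 2.38% of the counts of Col-0 replicate 1 and 0.588% to 1.57% of the other libraries. The members' differences from Col-0 are therefore also given without Col-0 replicate 1. That leaves 1 Col-0 library, so that the spread in that fit comes from the mutant lines alone. Calls from that fit do not measure the spread between Col-0 libraries. The 3 leaf mesophyll markers (*RBCS1A*, *CAB1* and *CA1*) summed to 11189.7 to 11466 CPM in *mips1*, 25507 to 26028 CPM in *big* and 19999 to 21781 CPM in *mips1 big*, against 37237 to 39671 CPM in Col-0.

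Compared per exon length, *ARR4* had the highest mean level of the family in every genotype. *ARR4* averaged 91.1 ± 2.61 RPKM (CPM per kilobase of exon) in *mips1*, 55.4 ± 0.0125 RPKM in *big* and 54.2 ± 0.884 RPKM in *mips1 big*, against 104.6 ± 4.88 RPKM in Col-0 (SD, n = 2 each). *ARR7* came next in the 3 mutant lines, with 59.7 ± 0.146 RPKM in *mips1*, 30.1 ± 0.0502 RPKM in *big* and 30.5 ± 4.40 RPKM in *mips1 big*, against 61.4 ± 4.77 RPKM in Col-0. In Col-0 the mean of *ARR8* lay above that of *ARR7*, with 1 library far above the other, as described with that gene. In that library, Col-0 replicate 1, *ARR8* at 113 RPKM also lay above *ARR4* at 108 RPKM. Below *ARR4* and *ARR7* the order differed between genotypes. In *mips1* leaves *ARR5* followed at 29.6 ± 0.345 RPKM, and *ARR6* at 14.6 ± 0.678 RPKM and *ARR8* at 14.1 ± 0.811 RPKM did not differ beyond their spread. In Col-0 leaves *ARR6* at 34.0 ± 4.98 RPKM and *ARR9* at 29.1 ± 2.32 RPKM overlapped between libraries, and *ARR5* followed at 20.9 ± 2.12 RPKM. *ARR15* was the lowest tested member in *mips1* leaves at 1.57 ± 0.0704 RPKM, against 9.35 ± 0.0193 RPKM in Col-0 leaves, where *ARR16* lay just above it at 11.5 ± 1.61 RPKM. In *big* and *mips1 big* leaves the lowest tested member was *ARR16*, at 5.71 ± 0.146 RPKM and 5.78 ± 0.0986 RPKM.

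**Figure D1:**
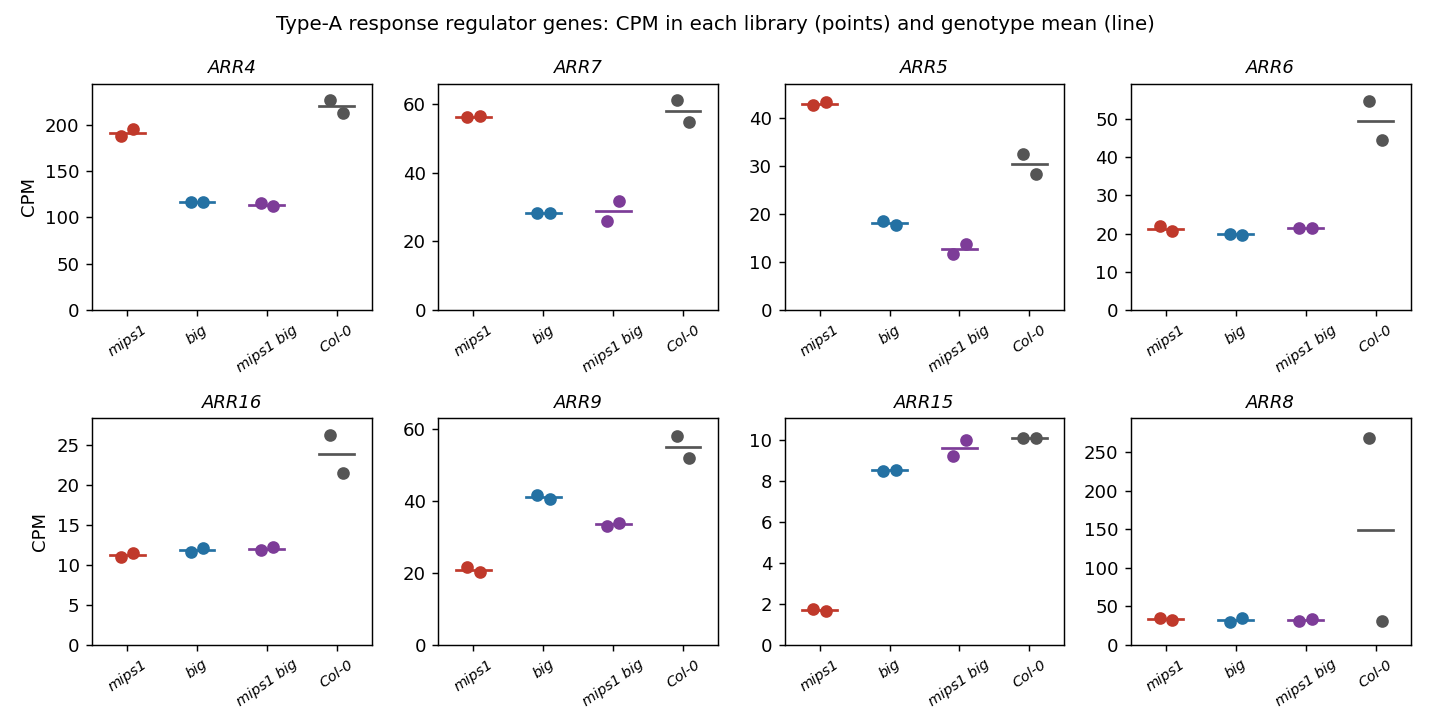
CPM of the 8 tested type-A genes (y axis, from 0, with its own scale in each panel) in *mips1*, *big*, *mips1 big* and Col-0 leaves (x axis). Points are libraries and lines are genotype means. *ARR15* was by far lowest in *mips1*, at 1.75 and 1.64 CPM, *ARR6* and *ARR16* were low in all 3 mutant lines, and 1 Col-0 library reached 268 CPM for *ARR8*.

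The family was first compared between *mips1* and Col-0 leaves. With edgeR's quasi-likelihood test and Benjamini-Hochberg adjustment over 23916 genes, 5 of the 8 tested members were lower (*ARR4*, *ARR6*, *ARR9*, *ARR15* and *ARR16*) and 1 was higher (*ARR5*) at an adjusted p under 0.05, where 37.1% of all tested genes were lower and 36% were higher. The median log2 fold change of the 8 members was -1.15, beside -0.03 over all tested genes. This median was -0.55 without Col-0 replicate 1. In *big* against Col-0, 7 of 8 members were lower and 0 were higher, where 23.6% of all tested genes were lower and 25.6% were higher, with 0 members higher at an unadjusted p under 0.05 and 0 by DESeq2. The median of the members was -0.96, beside 0.00 over all tested genes, and -0.75 without Col-0 replicate 1. In *mips1 big* against Col-0, 6 of 8 members were lower and 0 were higher, where 30.7% of all tested genes were lower and 31.1% were higher, again with 0 members higher at an unadjusted p under 0.05 and 0 by DESeq2. Here the members had a median of -0.996, beside 0.00 over all tested genes, and of -0.86 if Col-0 replicate 1 was left out. These 3 comparisons share the Col-0 libraries. With scaling by library size alone, the median of all genes was 0.30 in *mips1*, 0.27 in *big* and 0.38 in *mips1 big* against Col-0. That scaling called 12033 genes higher and 5813 lower in *mips1*, 11506 and 2109 in *big*, and 13721 and 2848 in *mips1 big*. The composition-based scaling called 8602 and 8877, 6129 and 5646, and 7428 and 7338. In leaf tissue, fewer cells of a type and less RNA per cell cannot be told apart.

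**Figure D2:**
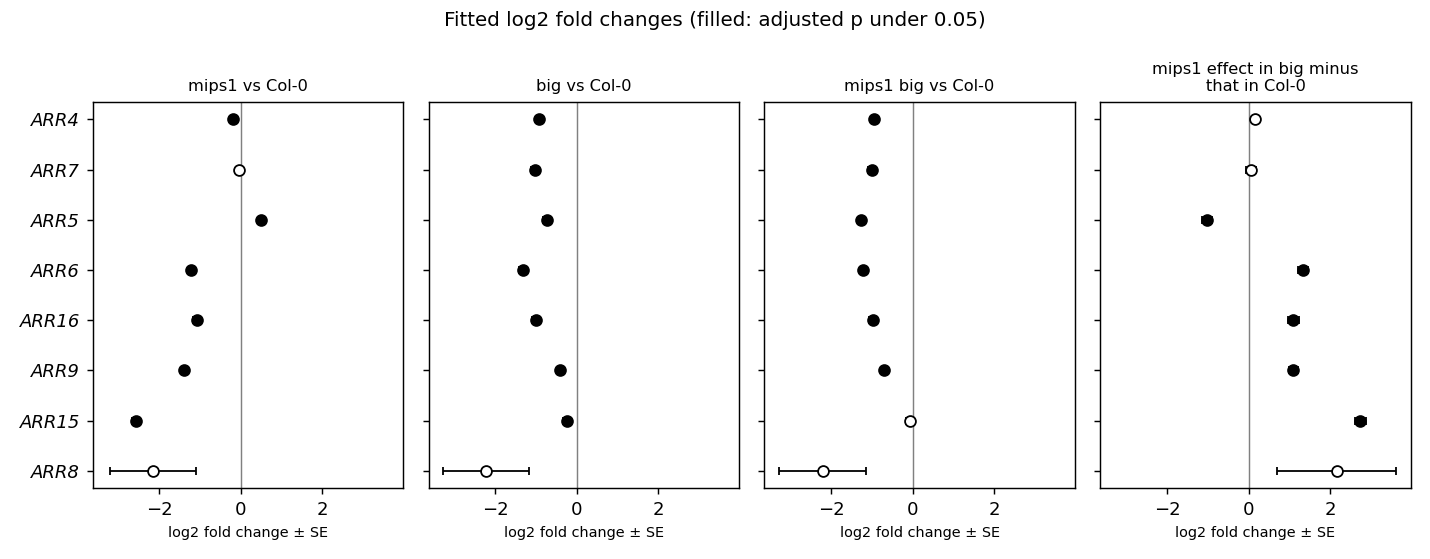
Fitted log2 fold change (x axis, bars are the standard error) of each tested member (y axis) for *mips1*, *big* and *mips1 big* against Col-0 and, at the right, for the *mips1* effect in the *big* background minus that in Col-0. Filled points passed the edgeR test at an adjusted p under 0.05. In *mips1* the members spread over a range from -2.58 for *ARR15* to 0.50 for *ARR5*, whereas in *big* all 7 called members lie between -1.32 and -0.24.

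Type-A genes form pairs of close relatives, and the members are described pair by pair. The coding sequences of *ARR5* and *ARR6* were 82.1% identical over 548 aligned bases, those of *ARR7* and *ARR15* 79.0%, *ARR8* and *ARR9* 81.3%, *ARR3* and *ARR4* 83.7%, and *ARR16* and *ARR17* 84.9%. Of the stretches of 75 exon bases, the length of a read, none in any member other than *ARR8* was found a second time in the genome, and in *ARR8* 17 of 1913 were.

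*ARR5*, a gene whose promoter is a common cytokinin reporter, was the member that moved in opposite directions in the single mutants. It was at 42.5 and 43.2 CPM in *mips1*, at 18.6 and 17.6 CPM in *big* and at 11.6 and 13.7 CPM in *mips1 big*, against 32.5 and 28.2 CPM in Col-0. Libraries of different genotypes did not overlap. *ARR5* was 1.42-fold higher in *mips1* than in Col-0 (log2 fold change 0.50 ± 0.09 SE, edgeR quasi-likelihood adjusted p = 0.000201). It was 1.67-fold lower in *big* than in Col-0 (-0.74 ± 0.09, edgeR adjusted p = 2.51e-05) and 2.40-fold lower in *mips1 big* than in Col-0 (-1.26 ± 0.09, edgeR adjusted p = 1.67e-07). Without Col-0 replicate 1 these values were 0.60, -0.64 and -1.15. *ARR5* was also 1.43-fold lower in *mips1 big* than in *big* (-0.52 ± 0.09, edgeR adjusted p = 0.00160) and 3.40-fold lower in *mips1 big* than in *mips1* (-1.77 ± 0.09, edgeR adjusted p = 2.02e-09), so that the double mutant held the lowest level of the 4 genotypes.

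*ARR6*, the closest relative of *ARR5*, which has been linked to cell wall composition and disease resistance, was low in all 3 mutant lines. It was at 22.0 and 20.6 CPM in *mips1*, at 19.9 and 19.7 CPM in *big* and at 21.4 and 21.3 CPM in *mips1 big*, against 54.7 and 44.4 CPM in Col-0. Each mutant library lay below both Col-0 libraries. *ARR6* was 2.33-fold lower in *mips1* (-1.22 ± 0.09, edgeR adjusted p = 6.58e-08), 2.50-fold lower in *big* (-1.32 ± 0.09, edgeR adjusted p = 1.90e-07) and 2.32-fold lower in *mips1 big* (-1.21 ± 0.09, edgeR adjusted p = 1.97e-07) than in Col-0. Without Col-0 replicate 1 these log2 fold changes were -1.07, -1.17 and -1.05. Between *mips1 big* and *big* the log2 difference was 0.11 ± 0.09 (edgeR adjusted p = 0.439), and between *mips1 big* and *mips1* it was 0.01 ± 0.09 (edgeR adjusted p = 0.955). *ARR6* shares 348 bases with AT5G62910 on the opposite strand, and since the counting did not use strand, reads there cannot be told apart. AT5G62910 had 1120 to 3622 counts and log2 fold changes of 0.30 in *mips1*, -0.32 in *big* and -0.43 in *mips1 big* against Col-0.

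The sequences just upstream of this pair are shown because the genes share most of their coding sequence and differed in *mips1*. They are the 250 bases before the annotated start of each gene on the minus strand of the RefSeq TAIR10.1 genome, at chr3:17760951-17761200 for *ARR5* and chr5:25254319-25254568 for *ARR6*. Capitals mark AGATT, the core motif bound by type-B regulators, on either strand.
ARR5: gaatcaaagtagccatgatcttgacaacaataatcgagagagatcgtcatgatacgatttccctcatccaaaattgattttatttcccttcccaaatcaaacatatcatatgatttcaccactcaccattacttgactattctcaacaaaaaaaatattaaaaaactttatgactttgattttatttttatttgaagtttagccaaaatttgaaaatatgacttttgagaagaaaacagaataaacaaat
ARR6: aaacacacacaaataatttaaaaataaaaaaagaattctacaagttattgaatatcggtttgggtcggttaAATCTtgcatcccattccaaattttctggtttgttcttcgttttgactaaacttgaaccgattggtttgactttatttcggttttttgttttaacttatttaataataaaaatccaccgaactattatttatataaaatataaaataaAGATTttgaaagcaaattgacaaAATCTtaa
The *ARR5* window held no AGATT. The *ARR6* window held 3, at 179, 31 and 8 bases before the gene start. In 23775 upstream windows of this length, 62.7% held the motif at least once and 8.69% held it 3 or more times. A match in these letters is a description of the window and not a measured binding site.

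*ARR7* and *ARR15* are close relatives that act together in the shoot meristem, where the stem cell factor WUSCHEL represses them. *ARR7* was at 56.2 and 56.4 CPM in *mips1*, at 28.3 and 28.4 CPM in *big* and at 25.8 and 31.7 CPM in *mips1 big*, against 61.1 and 54.7 CPM in Col-0. The *mips1* and Col-0 libraries overlapped, and all libraries of *big* and *mips1 big* lay below them. *ARR7* was 2.04-fold lower in *big* (-1.03 ± 0.09, edgeR adjusted p = 1.99e-06) and 2.01-fold lower in *mips1 big* (-1.01 ± 0.09, edgeR adjusted p = 1.24e-06) than in Col-0, or -0.95 and -0.92 on the log2 scale without Col-0 replicate 1. In *mips1* against Col-0 the log2 difference was -0.04 ± 0.09 (edgeR adjusted p = 0.712), and 0.03 without Col-0 replicate 1. It was 0.29 where counts were scaled by library size alone, beside 0.30 for the median gene under that scaling.

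*ARR15* showed the opposite arrangement. It was at 1.75 and 1.64 CPM in *mips1*, at 8.50 and 8.53 CPM in *big* and at 9.20 and 9.995 CPM in *mips1 big*, against 10.1 and 10.1 CPM in Col-0. The *mips1* libraries, with 125 and 180 counts, lay far below all others. *ARR15* was 5.97-fold lower in *mips1* than in Col-0 (-2.58 ± 0.10, edgeR adjusted p = 1.39e-10), with -2.59 without Col-0 replicate 1. It was 5.68-fold higher in *mips1 big* than in *mips1* (2.50 ± 0.10, edgeR adjusted p = 1.58e-10). In *big* it was 1.18-fold lower than in Col-0 (-0.24 ± 0.09, edgeR adjusted p = 0.0370), and -0.25 without Col-0 replicate 1. This call was lost when a *big* library or Col-0 replicate 2 was left out (edgeR adjusted p up to 0.146), with DESeq2 (adjusted p = 0.0777), with no filter on low counts (edgeR adjusted p = 0.0723), with the compared groups alone (edgeR adjusted p = 0.0557) and with the replicate number as a block (edgeR adjusted p = 0.0538), and its value was 0.03 with scaling by library size alone. The 7 lower calls in *big* include it. In *mips1 big* against Col-0 the log2 difference was -0.07 ± 0.09 (edgeR adjusted p = 0.493), and -0.064 without Col-0 replicate 1. It was 0.31 with scaling by library size alone, beside 0.38 for the median gene under that scaling.

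The upstream windows of *ARR7* and *ARR15* are shown for the same reason, the different levels of a close pair. They lie on the minus strand of the RefSeq TAIR10.1 genome at chr1:6579315-6579564 for *ARR7* and chr1:28133026-28133275 for *ARR15*, with AGATT on either strand in capitals.
ARR7: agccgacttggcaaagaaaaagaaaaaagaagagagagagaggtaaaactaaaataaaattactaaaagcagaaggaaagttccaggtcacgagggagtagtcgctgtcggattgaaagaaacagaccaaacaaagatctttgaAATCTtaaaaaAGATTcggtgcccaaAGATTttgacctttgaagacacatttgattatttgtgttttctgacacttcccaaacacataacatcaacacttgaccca
ARR15: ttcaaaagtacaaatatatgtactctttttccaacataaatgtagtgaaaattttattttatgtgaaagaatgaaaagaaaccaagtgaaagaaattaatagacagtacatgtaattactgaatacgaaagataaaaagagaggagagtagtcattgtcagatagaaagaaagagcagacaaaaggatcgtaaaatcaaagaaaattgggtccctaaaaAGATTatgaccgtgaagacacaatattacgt
*ARR7* held 3 matches, at 106, 95 and 80 bases before the gene start. It also held AAGATNTT, a longer form of the motif with any base at N, searched on either strand. This form contains AGATT only where N is T, so that its matches need not overlap with AGATT. *ARR15* held 1 match, at 31 bases, and no AAGATNTT, which was found in 11.4% of all windows. Among the other members, the windows of *ARR9* and *ARR16* held 2 matches of AGATT each, those of *ARR3* and *ARR8* held 1 each, and those of *ARR4* and *ARR17* held 0. AAGATNTT was also found in the windows of *ARR6*, *ARR8*, *ARR9* and *ARR16*. TTGAC, the core of the W-box bound by WRKY factors, was found in the windows of *ARR4*, *ARR5*, *ARR6*, *ARR7* and *ARR8* and in 44.7% of all windows.

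*ARR4*, a regulator that also binds the light receptor phytochrome B, was the most abundant member by genotype mean. It was at 187 and 195 CPM in *mips1*, at 116 and 116 CPM in *big* and at 115 and 112 CPM in *mips1 big*, against 227 and 212 CPM in Col-0. No library of a mutant line overlapped with Col-0. *ARR4* was 1.89-fold lower in *big* (-0.92 ± 0.06, edgeR adjusted p = 2.74e-07) and 1.93-fold lower in *mips1 big* (-0.95 ± 0.06, edgeR adjusted p = 1.01e-07) than in Col-0, with -0.87 and -0.89 without Col-0 replicate 1. In *mips1* the difference from Col-0 was small, 1.15-fold lower (-0.20 ± 0.06, edgeR adjusted p = 0.0141), and -0.16 without Col-0 replicate 1. It missed the threshold when a *mips1* library was left out (edgeR adjusted p up to 0.175), with no filter on low counts (edgeR adjusted p = 0.0884) and with the compared groups alone (edgeR adjusted p = 0.0550), and was 0.13 with scaling by library size alone, below the 0.30 of the median gene under that scaling. *ARR4* was 1.68-fold lower in *mips1 big* than in *mips1* (-0.75 ± 0.06, edgeR adjusted p = 2.80e-07), and the log2 difference between *mips1 big* and *big* was -0.03 ± 0.06 (edgeR adjusted p = 0.765).

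*ARR3*, the closest relative of *ARR4*, was barely detected. It had 3 and 2 counts in *mips1*, 3 and 4 counts in *big* and 9 and 6 counts in *mips1 big*, against 0 and 0 counts in Col-0. A count of 0 allows up to 3 counts. Before the correction for composition, 3 counts stand for 0.0599 and 0.0300 CPM in the Col-0 libraries. Only the *mips1 big* libraries and *big* replicate 2 held more than 3 counts. The test left *ARR3* out for its low counts.

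*ARR8* and *ARR9* form a pair that responds less to added cytokinin than most type-A genes. *ARR9* was at 21.6 and 20.2 CPM in *mips1*, at 41.6 and 40.6 CPM in *big* and at 33.0 and 34.0 CPM in *mips1 big*, against 58.1 and 51.9 CPM in Col-0. The 4 genotypes did not overlap, with *mips1* lowest and the double mutant between both single mutants. *ARR9* was 2.64-fold lower in *mips1* (-1.40 ± 0.07, edgeR adjusted p = 2.72e-09), 1.34-fold lower in *big* (-0.42 ± 0.07, edgeR adjusted p = 0.000410) and 1.64-fold lower in *mips1 big* (-0.72 ± 0.07, edgeR adjusted p = 3.12e-06) than in Col-0. Without Col-0 replicate 1 these values were -1.33, -0.34 and -0.63, and the call in *big* was lost with scaling by library size alone (-0.15, edgeR adjusted p = 0.101). It was 1.61-fold higher in *mips1 big* than in *mips1* (0.68 ± 0.07, edgeR adjusted p = 2.24e-06) and 1.23-fold lower in *mips1 big* than in *big* (-0.30 ± 0.07, edgeR adjusted p = 0.0128). The last of these calls was lost when any library of either line was left out (edgeR adjusted p up to 0.120). *ARR9* shares 231 bases with AT3G08825 on the opposite strand, which had 0 to 9 counts.

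The values of *ARR8* turned on 1 library. It was at 34.8 and 32.1 CPM in *mips1*, at 28.9 and 34.2 CPM in *big* and at 31.0 and 32.9 CPM in *mips1 big*, against 268 CPM in Col-0 replicate 1 and 30.3 CPM in Col-0 replicate 2. Against Col-0 the log2 differences were -2.15 ± 1.06 in *mips1* (edgeR adjusted p = 0.136), -2.23 ± 1.06 in *big* (edgeR adjusted p = 0.164) and -2.22 ± 1.06 in *mips1 big* (edgeR adjusted p = 0.144), and without Col-0 replicate 1 they were 0.13, 0.06 and 0.08. DESeq2, edgeR without the filter on low counts, and edgeR without Col-0 replicate 2 called *ARR8* lower in each of these comparisons. AT2G09250, an RNA gene on the opposite strand, lies inside the last exon of *ARR8* at chr2:17224503-17224801 (TAIR10), and its reads were counted for both genes. It had 821 and 1178 counts in *mips1*, 357 and 747 counts in *big* and 597 and 707 counts in *mips1 big*, against 9965 counts in Col-0 replicate 1 and 401 counts in Col-0 replicate 2. In Col-0 replicate 1, 88.7% of the reads counted for *ARR8* were counted for AT2G09250 too, and in the other libraries 15.6% to 33.4%.

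Less those reads, an alternative chosen after seeing the data, *ARR8* was at 23.4 and 21.4 CPM in *mips1*, at 24.0 and 22.9 CPM in *big* and at 23.7 and 22.5 CPM in *mips1 big*, against 30.2 and 25.6 CPM in Col-0. All mutant libraries then lay below both Col-0 libraries. This order rests on an uneven removal, of 17.0% to 33.4% of the *ARR8* reads in the mutant libraries and 15.6% in Col-0 replicate 2. Without strand, the reads removed may include those of *ARR8* itself. The log2 differences from Col-0 were -0.31 in *mips1* (edgeR adjusted p = 0.00487), -0.24 in *big* (edgeR adjusted p = 0.0310) and -0.27 in *mips1 big* (edgeR adjusted p = 0.0161). Whether the extra reads of Col-0 replicate 1 come from the antisense gene was not tested, since strand was not kept in the counts.

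**Figure D3:**
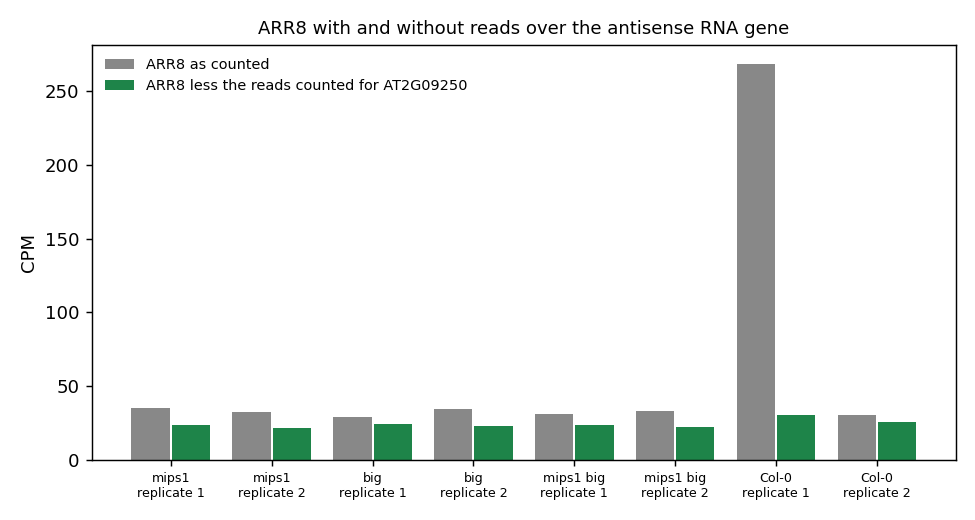
CPM of *ARR8* in each library (y axis, from 0), as counted (grey bars) and less the reads that were also counted for the antisense RNA gene AT2G09250 (green bars). Col-0 replicate 1 stands at 268 CPM as counted and at 30.2 CPM without those reads, and the other 7 libraries at 28.9 to 34.8 CPM and 21.4 to 25.6 CPM.

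*ARR16*, which takes part in the divisions of the stomatal lineage, was low in all 3 mutant lines by about the same amount. It was at 10.9 and 11.5 CPM in *mips1*, at 11.6 and 12.1 CPM in *big* and at 11.8 and 12.1 CPM in *mips1 big*, against 26.2 and 21.4 CPM in Col-0. All 6 mutant libraries lay between 10.9 and 12.1 CPM, below both Col-0 libraries. *ARR16* was 2.12-fold lower in *mips1* (-1.08 ± 0.09, edgeR adjusted p = 2.49e-07), 2.00-fold lower in *big* (-1.001 ± 0.09, edgeR adjusted p = 2.41e-06) and 1.98-fold lower in *mips1 big* (-0.98 ± 0.09, edgeR adjusted p = 1.44e-06) than in Col-0. Without Col-0 replicate 1 these values were -0.95, -0.86 and -0.83. *SPCH*, the factor that starts the stomatal lineage, was at 0.377 and 0.355 CPM in *mips1*, at 9.45 and 8.81 CPM in *big* and at 11.5 and 11.5 CPM in *mips1 big*, against 1.43 and 1.21 CPM in Col-0. The other 2 markers of this lineage moved less. *FAMA*, which acts at its last division, was 1.27-fold lower in *mips1*, 1.22-fold higher in *big* and 1.43-fold higher in *mips1 big* than in Col-0. *MYB60*, a guard cell factor, was 2.25-fold lower in *mips1* and 1.28-fold lower in *mips1 big* than in Col-0, and its log2 difference in *big* was -0.14 ± 0.08 (edgeR adjusted p = 0.197). *ARR17*, the closest relative of *ARR16*, had 0 and 4 counts in *mips1*, 3 and 3 counts in *big* and 4 and 4 counts in *mips1 big*, against 1 and 5 counts in Col-0, and was left out of the test.

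The effect of the *mips1* mutation was next compared between the *big* and Col-0 backgrounds. In *mips1 big* against *big*, 2 of 8 members were lower (*ARR5* and *ARR9*) and 0 were higher, where 10.8% of all tested genes were lower and 8.46% were higher. At an unadjusted p under 0.05, 0 members were higher, and DESeq2 also called 0 higher. The difference between the *mips1* effect in the *big* background and that in Col-0, tested as an interaction term, was called positive for 4 of 8 members and negative for 1, where 30.8% of all tested genes were called positive and 31.2% negative. It was 2.75 ± 0.13 on the log2 scale for *ARR15* (edgeR adjusted p = 3.08e-09), 1.33 ± 0.13 for *ARR6* (edgeR adjusted p = 1.45e-06), 1.10 ± 0.10 for *ARR9* (edgeR adjusted p = 1.19e-06) and 1.10 ± 0.13 for *ARR16* (edgeR adjusted p = 9.80e-06). For these 4 genes the *mips1* effect was -2.58 to -1.08 in Col-0 and -0.30 to 0.17 in *big*. The term was -1.02 ± 0.13 for *ARR5* (edgeR adjusted p = 1.57e-05), whose *mips1* effect was -0.52 in *big* and 0.50 in Col-0. For *ARR4* it was 0.16 ± 0.09 (edgeR adjusted p = 0.136) and for *ARR7* 0.06 ± 0.13 (edgeR adjusted p = 0.711).

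Between *mips1 big* and *mips1*, 2 of 8 members were higher (*ARR15* and *ARR9*) and 3 were lower (*ARR4*, *ARR5* and *ARR7*), where 39.1% of all tested genes were higher and 38.9% were lower. *ARR7* was 1.96-fold lower in *mips1 big* than in *mips1* (-0.97 ± 0.09, edgeR adjusted p = 6.62e-07). *ARR16* differed by 0.10 ± 0.09 (edgeR adjusted p = 0.330). Shoot meristem markers stood higher in the libraries that carry the *big* mutation. The 4 shoot meristem markers (*STM*, *KNAT1*, *WUS* and *CLV3*) summed to 0.0699 to 0.100 CPM in *mips1*, 7.39 to 8.53 CPM in *big* and 8.34 to 8.89 CPM in *mips1 big*, against 0.0824 to 0.191 CPM in Col-0. *STM* and *KNAT1* made up nearly all of it, *WUS* had 0 counts in *big* and 2 and 2 counts in *mips1 big*, and *CLV3* had 1 to 3 counts in these lines. The part of these markers and of the mesophyll markers in the type-A values was not tested.

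By shape across the 8 libraries, the closest members were *ARR6* and *ARR16*, with a root mean square distance of 0.127 between their centred log2 CPM, followed by *ARR4* and *ARR7* with 0.134. Neither pair is a pair of close relatives in sequence. *ARR7* and *ARR15* stood 1.39 apart, and the largest distance in the family was 1.63, between *ARR5* and *ARR15*. Outside the family, the 3 genes whose pattern was nearest to the mean of the 8 tested members, among 20880 genes over the 8 libraries, were *CRL* at a distance of 0.0795, AT1G04463 at 0.0804 and *UBC8* at 0.108. The mean of the members includes the high Col-0 value of *ARR8*.

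Other genes of the cytokinin pathway changed in both directions. Of 58 other pathway genes listed, 48 were tested. In *mips1* against Col-0, 23 were higher and 19 lower, where 36% of all tested genes were higher and 37.1% lower. In *big*, 15 were higher and 16 lower, where 25.6% of all tested genes were higher and 23.6% lower. In *mips1 big* against Col-0, 17 were higher and 18 lower, where 31.1% of all tested genes were higher and 30.7% lower. These shares of all tested genes apply to the lists below too. DESeq2 called 18 higher and 18 lower in *mips1*, 10 and 15 in *big*, and 15 and 16 in *mips1 big*. With Col-0 replicate 1 left out, edgeR called 20 higher and 21 lower in *mips1*, 14 and 16 in *big*, and 15 and 18 in *mips1 big*. Their median log2 fold change was 0.21 in *mips1*, 0.14 in *big* and 0.01 in *mips1 big*, beside member medians of -1.15, -0.96 and -0.996. With Col-0 replicate 1 left out, the pathway medians were 0.13, 0.01 and -0.038, beside member medians of -0.55, -0.75 and -0.86. Each pathway gene named with its test below kept its direction without Col-0 replicate 1, in the comparison given.

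Upstream of the type-A genes, the 3 receptors changed in both directions. In *mips1*, *AHK3*, the main receptor in leaf ageing, was higher (0.56 ± 0.06, edgeR adjusted p = 3.05e-06), and *AHK2* (-0.98 ± 0.08, edgeR adjusted p = 2.60e-07) and *AHK4* were lower than in Col-0. In *big*, *AHK4* was higher (0.32 ± 0.07, edgeR adjusted p = 0.00157) and *AHK3* lower (-0.27 ± 0.06, edgeR adjusted p = 0.00312). Of the 6 phosphotransfer genes, 2 were higher and 3 lower in each single mutant (1 higher in *mips1* without Col-0 replicate 1). Among them were *AHP5*, which was higher in *mips1* (0.36 ± 0.07, edgeR adjusted p = 0.000681), *AHP1*, which was lower in *mips1* (-1.22 ± 0.13, edgeR adjusted p = 1.90e-06) and in *big* (-1.05 ± 0.13, edgeR adjusted p = 2.58e-05), and *AHP4*, which was higher in *big* (2.85 ± 0.15, edgeR adjusted p = 2.74e-08). Of the 11 type-B regulators, the activators of the type-A genes, 7 were tested, and 3 were higher and 3 lower in *mips1*, while 0 were higher and 3 lower in *big* (0 higher at an unadjusted p under 0.05 and 0 by DESeq2). DESeq2 called 1 higher and 2 lower in *mips1*, and without Col-0 replicate 1 edgeR called 1 higher and 3 lower there and 4 lower in *big*. *ARR2* was higher in *mips1* (0.78 ± 0.10, edgeR adjusted p = 1.30e-05) and lower in *big* (-0.70 ± 0.10, edgeR adjusted p = 0.000127), and *ARR14* was lower in *mips1* (-1.60 ± 0.08, edgeR adjusted p = 2.70e-09). The 2 type-C regulators were not tested for low counts.

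The cytokinin response factors, a group of AP2-type transcription factors that branch off the same pathway, split 3 to 3 in *mips1*, where *CRF6*, a stress-related member, was highest (1.71 ± 0.08, edgeR adjusted p = 1.47e-09) and *CRF4* was lower (-1.25 ± 0.13, edgeR adjusted p = 2.27e-06). In *big*, 3 of these 6 were higher and 0 lower (0 lower at an unadjusted p under 0.05 and 0 by DESeq2), led by *CRF3* (2.63 ± 0.19, edgeR adjusted p = 3.24e-07). DESeq2 called 2 higher in each single mutant. Among 15 tested genes of cytokinin synthesis, 7 were higher and 4 lower in *mips1*, and 7 were higher and 2 lower in *big*. DESeq2 called 5 higher and 4 lower in *mips1* and 5 higher and 1 lower in *big*, and without Col-0 replicate 1 edgeR called 7 and 6 in *mips1* and 6 and 1 in *big*. *IPT7*, an enzyme of the first step, rose in *mips1* (3.36 ± 0.29, edgeR adjusted p = 3.36e-07), with 91 and 166 counts against 6 and 11 counts in Col-0. *IPT9*, which modifies transfer RNAs, was lower in *mips1* (-0.88 ± 0.07, edgeR adjusted p = 2.49e-07). In *big*, *LOG1*, an enzyme that releases active cytokinins, was higher (0.64 ± 0.08, edgeR adjusted p = 4.04e-05) and *IPT3* lower (-0.66 ± 0.10, edgeR adjusted p = 0.000143).

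Of the 7 *CKX* genes, which encode the oxidases that break cytokinins down, 5 were higher and 2 lower in *mips1*, and 1 was higher (0 by DESeq2) and 4 lower in *big*. *CKX3* had 244 and 395 counts in *mips1*, 12 and 17 counts in *big* and 21 and 23 counts in *mips1 big*, against 4 and 6 counts in Col-0 (5.44 ± 0.29 in *mips1*, edgeR adjusted p = 2.75e-09). *CKX6* was lower in *mips1* (-1.05 ± 0.08, edgeR adjusted p = 1.34e-07) and *CKX5* lower in *big* (-0.68 ± 0.11, edgeR adjusted p = 0.000190). Of 4 glucosyltransferase genes that inactivate cytokinins, 2 were higher and 2 lower in *mips1*, and 1 was higher (0 by DESeq2) and 3 lower in *big*. *UGT85A1*, which acts on trans-zeatin, was at 164 and 184 CPM in *mips1*, at 17.1 and 17.2 CPM in *big* and at 28.9 and 29.2 CPM in *mips1 big*, against 19.9 and 21.5 CPM in Col-0 (3.07 ± 0.08 in *mips1*, edgeR adjusted p = 2.75e-12). *UGT76C2* was lower in *mips1* (-1.17 ± 0.08, edgeR adjusted p = 5.51e-08) and in *big* (-0.78 ± 0.08, edgeR adjusted p = 8.83e-06). *UGT73C5*, the gene called higher in *big* (0.31 ± 0.11, edgeR adjusted p = 0.0359), was not called by DESeq2 (adjusted p = 0.0948).

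**Figure D4:**
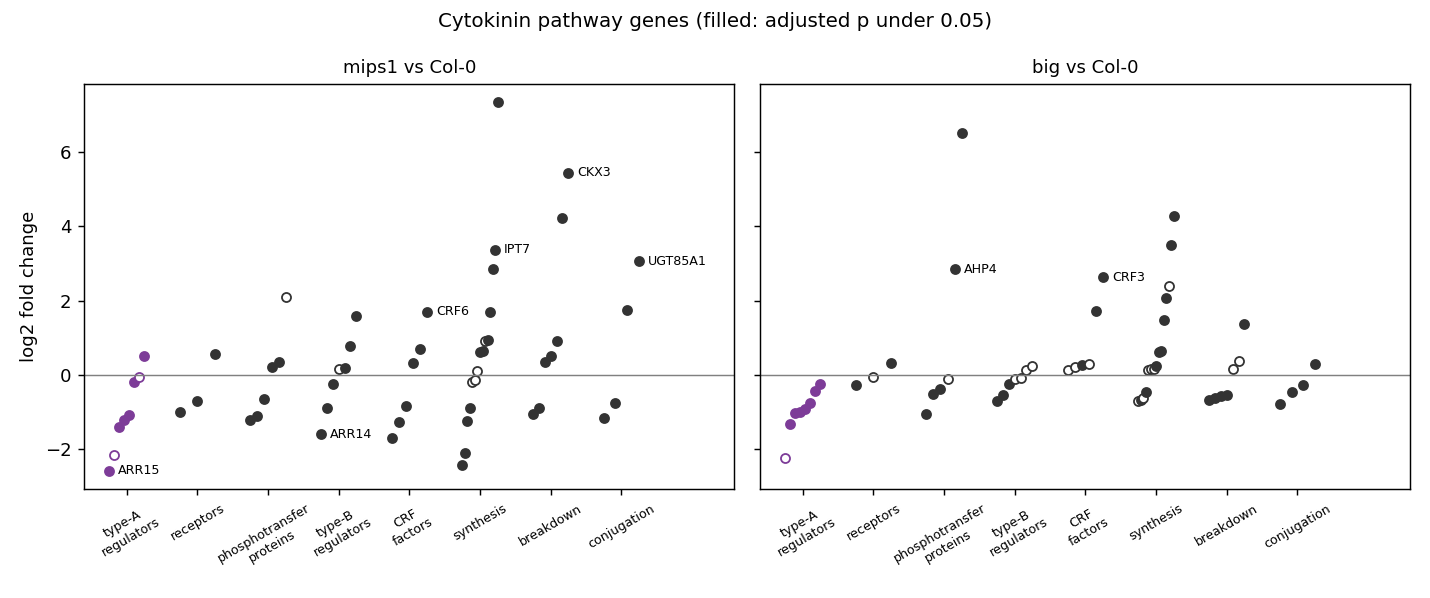
Log2 fold change (y axis) of each tested cytokinin pathway gene, grouped by role (x axis), in *mips1* (left) and *big* (right) against Col-0. Each point is a gene, purple for the type-A genes, and filled points passed the edgeR test at an adjusted p under 0.05. The type-A genes lie below 0 in both panels except *ARR5* in *mips1*. Of these, *ARR7* in *mips1* and *ARR8* in both panels were not called and turned above 0 without Col-0 replicate 1. The breakdown gene *CKX3* is highest among the named genes in *mips1* at 5.44.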

How the data were processed

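Rosette leaf mRNA of 8 libraries, 2 for each of 4 genotypes, was sequenced by the authors as single-end reads, trimmed with Trimmomatic and mapped with STAR 2.7.0d to TAIR10. The deposited table holds raw counts, the number of reads that the authors' featureCounts 1.6.3 run assigned to the exons of 37336 Araport11 genes, without strand, at a mapping quality of at least 10, with a read over several genes counted for each. Its length column, also from the authors, gives summed exon bases. A deposited table of normalized counts and the tables of the authors' fold changes and p-values were not used.

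Genotypes were taken from the sample labels. Genes were kept with filterByExpr (23916 genes), scaled by TMM and tested with edgeR 4.0.16 in R 4.3.3 (glmQLFit with robust estimation, glmQLFTest) in one model over all libraries (residual degrees of freedom: 4), and p-values were adjusted by Benjamini-Hochberg over all tested genes, with a threshold of 0.05. The standard error was derived from the F statistic. CPM and RPKM were computed from the counts, the TMM library sizes and the exon lengths. The script was tested on simulated counts. A limit of detection of 3 counts covers counting error only, since the reads carry no molecular identifiers.

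The members and the gene lists were chosen with earlier results of these data known. Of each pathway list, the text names the gene with the largest change in each direction among those called with a mean of at least 50 counts, in *mips1* and *big* against Col-0. Further genes named with values (*AHK4* in *mips1*, *SPCH*, *FAMA*, *MYB60*, *STM*, *KNAT1*, *WUS*, *CLV3*) complete a list of 3 or belong to a marker list. Gene positions are those of the count table. Upstream windows came from the RefSeq TAIR10.1 genome, where 36868 of 37051 nuclear genes (99.5%) had the same start and end as in the count table. Motifs were searched on both strands. Alternatives covered DESeq2 1.42.0, other scalings and filters, a replicate block, the compared groups alone, leaving out each library, and a minimum log2 fold change of 1. The last counted called members with an absolute value of at least 1. The other pathway lists were recomputed with DESeq2 and without Col-0 replicate 1, chosen after seeing the data.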

Additional observations from a re-analysis of the deposited data

Results flagged for a closer look

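The effect of *mips1* differed between the *big* and Col-0 backgrounds for 5 of 8 members by the interaction term of the edgeR fit. It was called positive for 4 and negative for 1, where 30.8% of all tested genes were called positive and 31.2% negative. Taken in both directions, the share of members called was close to that of all tested genes. The count alone therefore does not set the family apart. As the effect in *big* minus that in Col-0, the difference was 2.75 for *ARR15*, 1.33 for *ARR6*, 1.10 for *ARR9*, 1.10 for *ARR16* and -1.02 for *ARR5* on the log2 scale. All 5 kept their sign under every alternative run, and their call wherever each genotype kept both libraries. Without Col-0 replicate 1 the values were 2.77 for *ARR15*, 1.20 for *ARR6*, 1.04 for *ARR9*, 0.98 for *ARR16* and -1.11 for *ARR5*. *ARR6* and *ARR16* were lower than in Col-0 in both single mutants and in the double mutant, *ARR15* was 5.97-fold lower in *mips1* than in Col-0, and *ARR5* was higher in *mips1* and lowest in *mips1 big*.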

How the results depend on the processing

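Of 808 member values recomputed under alternatives, 737 kept their direction and side of the threshold, 31 lost a call, 16 gained one and 24 turned their sign. The cause was not tested where none is named. Scaling by library size alone called 2 members higher in *mips1* against Col-0, 1 higher in *mips1 big* against Col-0, and 1 higher and 1 lower in *mips1 big* against *big*. It turned *ARR4* (0.13) and *ARR7* (0.29) in *mips1* against Col-0, *ARR15* in *big* (0.028) and *mips1 big* (0.31) against Col-0, *ARR4* in *mips1 big* against *big* (0.076), and the interaction terms of *ARR4* (-0.056) and *ARR7* (-0.16). Of these 7 values, only those of *ARR7* in *mips1* and *ARR15* in *mips1 big* were then called. Both lay below the median of all genes under that scaling, 0.30 in *mips1* and 0.38 in *mips1 big* against Col-0. With no filter beyond 1 count, 1 member, *ARR3*, was higher in *mips1 big* than in Col-0. A minimum log2 fold change of 1 left 0 higher in *mips1* and 3 lower in each of *big* and *mips1 big* against Col-0, 0 lower in *mips1 big* against *big*, and 1 higher and 1 lower in *mips1 big* against *mips1*.

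*ARR6* in *mips1 big* against *mips1*, near 0 throughout, was -0.015 with DESeq2 and with its size factors, -0.027 without the filter, and -0.063 to 0.026 with 1 library left out. *ARR8* less the antisense reads was -0.022 in *mips1 big* against *big* and 0.048 against *mips1*. Leaving out each library in turn gave ranges that crossed 0 for *ARR7* in *mips1* against Col-0 (-0.13 to 0.031), in *mips1 big* against *big* (-0.12 to 0.16) and in the interaction (-0.074 to 0.20), and for *ARR16* in *mips1 big* against *big* (-0.0086 to 0.044). For *ARR8* the ranges were -3.01 to 0.13 in *mips1*, -3.09 to 0.055 in *big* and -3.06 to 0.084 in *mips1 big* against Col-0, -0.10 to 0.14 in *mips1 big* against *big*, and -0.10 to 3.04 in the interaction. The lower calls in *mips1 big* against *big* ranged from 1 to 2. Over all genes, 4172 were called higher and 1476 lower in *mips1 big* against *big* with scaling by library size alone, 3710 and 3792 with the compared groups alone, and 889 to 3663 and 1200 to 3688 with 1 library left out, where the full model called 2023 and 2583. The interaction was called positive for 5404 and negative for 9642 genes with library size alone, where it was 7377 and 7463.

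The replicate numbers did not pair the libraries (correlations of deviations from -0.218 to 0.211). With the replicate number as a block, 6 members were lower in *big* than in Col-0, since *ARR15* lost its call (edgeR adjusted p = 0.0538), and no other member call changed. Depth limits *ARR3* and *ARR17*, which had at most 9 counts in a library.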
